A study of Homo sapiens with 12 samples.

Results

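The 91 genes examined here are named after the nuclear-encoded proteins of oxidative phosphorylation, and their RNA was measured in CD133+ and CD133- cells of 3 gastric cancer cell lines. They were chosen by symbol alone, from 34595 genes with a value, as every symbol that begins with NDUF, UQCR, ATP5 or COX4 to COX8, together with SDHA, SDHB, SDHC and SDHD. Of these, 42 belong by name to complex I, 4 to complex II, 8 to complex III, 19 to complex IV and 18 to complex V. The symbols are those of the array annotation and several are older names. A group of 8 genes is carried along by name only. NDUFA4L2 is an isoform of NDUFA4, UQCRHL, ATP5EP2 and COX6BP1 are close copies of subunit genes, COX7A2L takes part in supercomplexes, COX4NB is a neighbor of COX4I1 and no subunit, and ATP5S and ATP5SL encode related proteins.

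The cells were KATO-III, SNU-216 and SNU-601, which are established lines grown from gastric cancers, kept in RPMI1640 medium with calf serum and given no treatment. Cells stained with an antibody against CD133 were sorted, and the brightest 10% (CD133+) and the dimmest 6% (CD133-) of each line were kept, so cells of intermediate staining were not measured. RNA of each of the 6 sorted populations was hybridized on 2 Illumina HT-12 v3 arrays, 12 arrays in all. The labels call the lines KATO-III, SNU-216 and SNU-601, while the deposited design description names SNU201 in the place of SNU-216. It is not given in the sources used here whether the 2 arrays of a population come from separate sorts or from 1 RNA extract, so that the p-values measure the spread between these arrays, which may be technical, and each line stands for itself only.

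Oxidative phosphorylation is the process by which mitochondria couple the oxidation of nutrients to the synthesis of ATP. Complex I (NADH dehydrogenase) and complex II (succinate dehydrogenase) pass electrons to ubiquinone, complex III passes them to cytochrome c and complex IV (cytochrome c oxidase) to oxygen, while complexes I, III and IV pump protons across the inner membrane and complex V (ATP synthase) uses the gradient to make ATP. Most subunits are encoded in the nucleus, a few core subunits are encoded by mitochondrial DNA and are not described here, and the nuclear genes are regarded as targets of the transcription factors NRF1 and GABP and of the coactivator PGC-1α.

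The values were background-subtracted, quantile-normalized intensities on a linear scale. They were compared on the log2 scale after values under a floor of 32.7 were set to the floor, and genes that exceeded the floor on 2 or more of the 12 arrays were tested. Of the 91 genes, 81 were tested (89.0%, against 58.2% of all genes), and 78 of them lay above the floor on all 12 arrays. Per array, 16320 to 16474 genes exceeded the floor, and r between the arrays of a population was 0.993 to 0.995 across genes, which are not independent replicates. PROM1, which encodes CD133, was higher in CD133+ cells of every line (log2 changes of 1.10, 2.02 and 1.86 in KATO-III, SNU-216 and SNU-601). Of 7 symbols for epithelial markers, 6 lay above the floor on all arrays, the exception being KRT20 (3 arrays). PTPRC and CD3E of the leukocyte list, DCN of the fibroblast list and all 3 endothelial markers were above it on no array. The 4 leukocyte markers summed to 839 to 852 (KATO-III CD133+) and 1224 to 1287 (KATO-III CD133-), nearly all of it CD14, and to 30.5 to 85.4 in the other populations. The 4 fibroblast markers summed to 114 to 157 in KATO-III CD133+ and 777 to 822 in KATO-III CD133- cells, where LUM had means of 78.0 and 763, and to 11.1 to 173 elsewhere. The 6 gastric markers summed to less in CD133+ than in CD133- cells of every line, from 21171 to 22518 against 31174 to 32357 in KATO-III. The sums were 36300 to 36308 against 53143 to 53734 in SNU-601. In SNU-216 they were low, at 234 to 258 against 309 to 332, and mostly MUC1, with means of 197 and 258. TFF1, TFF2, CLDN18 and MUC6 had means under the floor in both fractions of SNU-216. The part of these markers in the changes below was not tested. In sorted bulk cells, fewer cells of a kind and less RNA per cell cannot be told apart.

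Promoters are shown for the gene with the largest rise in each complex and for NDUFB7, the single member called lower in CD133+ cells of all 3 lines, so that the genes that moved can be set beside the motifs of their known regulators. The 150 bases before the transcription start were taken from RefSeq (GRCh38.p14) and are written 5′ to 3′ on the strand of the gene, with motif matches in capitals.
NDUFC1, chr4:139302552-139302701, strand -: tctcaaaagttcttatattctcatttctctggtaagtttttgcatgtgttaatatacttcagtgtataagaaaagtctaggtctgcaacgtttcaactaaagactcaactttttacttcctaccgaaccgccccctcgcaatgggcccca
SDHD, chr11:112086723-112086872, strand +: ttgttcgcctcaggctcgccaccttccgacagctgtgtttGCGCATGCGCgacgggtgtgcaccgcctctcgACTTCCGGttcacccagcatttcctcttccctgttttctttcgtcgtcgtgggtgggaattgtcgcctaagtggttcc
UQCRC2, chr16:21953211-21953360, strand +: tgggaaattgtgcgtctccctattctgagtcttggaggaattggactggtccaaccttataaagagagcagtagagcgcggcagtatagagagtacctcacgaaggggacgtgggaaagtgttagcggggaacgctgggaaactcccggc
COX7B, chrX:77899318-77899467, strand +: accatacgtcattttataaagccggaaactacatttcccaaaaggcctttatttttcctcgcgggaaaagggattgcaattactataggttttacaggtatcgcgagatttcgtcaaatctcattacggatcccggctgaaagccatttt
ATP5C1, chr10:7788027-7788176, strand +: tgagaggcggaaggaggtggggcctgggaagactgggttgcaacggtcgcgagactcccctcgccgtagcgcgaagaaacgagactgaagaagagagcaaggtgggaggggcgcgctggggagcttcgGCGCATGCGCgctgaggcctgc
NDUFB7, chr19:14572067-14572216, strand -: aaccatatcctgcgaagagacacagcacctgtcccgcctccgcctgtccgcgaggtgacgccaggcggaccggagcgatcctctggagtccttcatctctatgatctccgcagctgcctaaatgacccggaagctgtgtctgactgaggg
Windows of 300 bases, 250 before and 50 after the start, were at hand for 72 of the 91 genes, and were searched on both strands for the NRF1 motif, spelled as the capitals in ATP5C1 with any base allowed in the place of their T, and for CCGGAAGT (ETS factors such as GABPA). The first motif was found in 15 of the 72 windows (20.8%) and in 6.28% of all 27305 windows, the second in 9 (12.5%) and in 4.44% of all. By complex, the NRF1 motif was found in 6 of 36 windows of complex I, 2 of 3 of complex II, 3 of 6 of complex III, 1 of 15 of complex IV and 3 of 12 of complex V. SDHD holds both motifs, at -110 to -101 and at -78 to -71 from the start, and ATP5C1 holds the first at -22 to -13. The 2 matches in SDHD do not overlap. The windows of NDUFC1, UQCRC2, COX7B and NDUFB7 hold neither in these letters. In SDHA the NRF1 motif occurs 4 times, at -166, -117, -68 and -19. A match is a string of letters and was not tested as a binding site, and the windows belong to 1 start per gene.

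The question of the study was how CD133+ cells differ from CD133- cells in expression. For these genes the answer differed by line and by gene, and in no line were all tested genes of a complex called. In KATO-III, 19 of the 81 genes tested were higher in CD133+ cells (23.5%) where 18.7% of all genes were, and 13 were lower (16%) where 20.6% of all genes were. These counts include the genes carried along by name only, of which 7 were tested. In KATO-III 4 of these 7 were higher (57.1%) and 2 lower (28.6%). In SNU-216, 16 were higher (19.8%, against 14.6% of all genes) and 12 lower (14.8%, against 14% of all genes). In SNU-601, 5 were higher (6.17%, against 8.59%) and 8 lower (9.88%, against 7.78%). With each array centered on its median instead, the counts were 24 higher and 9 lower in KATO-III and 9 higher and 7 lower in SNU-601, while those of SNU-216 did not move. The median log2 change of the 81 genes was 0.02 in KATO-III, -0.005 in SNU-216 and -0.03 in SNU-601, where the median of all genes was 0 in each. At least 1 line gave a call for 48 genes, 59.3% of those tested, and for 56.2% of all genes. Calls are by limma on all 12 arrays with a mean per population, at a Benjamini-Hochberg adjusted p of 0.05 over 20147 genes.

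These counts rest on the spread shared over the 6 populations. With the 4 arrays of a line alone, limma called 4 genes lower in KATO-III, 9 higher and 4 lower in SNU-216, and 0 in SNU-601 in either direction, where 4 were higher and 11 lower at an unadjusted p under 0.05. Leaving out KATO-III CD133+ replicate 1 gave 8 lower genes in KATO-III. Leaving out SNU-216 CD133+ replicate 2 or CD133- replicate 2 gave 7 or 6 lower genes in SNU-216. In SNU-601, 2 genes were higher without CD133+ replicate 1, CD133+ replicate 2 or CD133- replicate 1, and 3 were higher and 5 lower without CD133- replicate 2. In simulated data with the spread of these arrays, 12.5% of genes changed by 0.3 on the log2 scale in KATO-III were recovered. Of genes changed by 1, 92% were recovered. The simulation changed 200 of 10721 genes, all above the floor on every array. In the data, 18.7% of all genes were called higher and 20.6% lower in KATO-III. Adjustment depends on the share of changed genes, so the simulated shares do not give the recovery in the data.

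**Figure D1:**
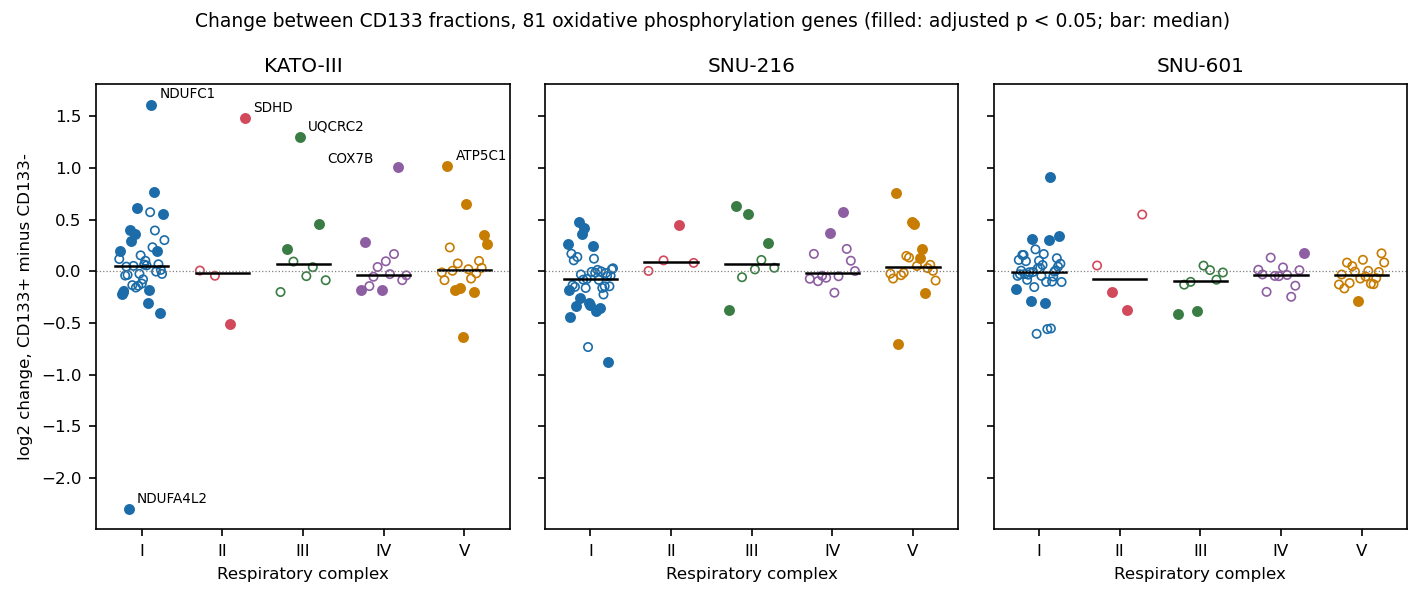
Log2 change between the CD133+ and CD133- cells of each line (vertical axis) for the 81 genes tested, grouped by respiratory complex (horizontal axis). Filled points passed an adjusted p of 0.05, open points did not, and the black bar is the median of a complex. In KATO-III 1 gene of each complex stands at 1.01 or above (NDUFC1, SDHD, UQCRC2, COX7B and ATP5C1) and NDUFA4L2 at -2.30, while the medians of the complexes lie near 0 in all 3 lines.

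Complex I has a catalytic core, which takes electrons from NADH, and many accessory subunits around it. Of its 39 genes tested, 9 were higher (23.1%) and 6 lower (15.4%) in CD133+ cells of KATO-III, with NDUFA4L2 among the lower. In SNU-216 5 were higher and 9 lower, and in SNU-601 4 were higher and 3 lower. The shares of all genes, against which the counts of the catalytic core are also to be read, were 18.7% and 20.6% in KATO-III. They were 14.6% and 14% in SNU-216, and 8.59% and 7.78% in SNU-601. The largest rise of all members was that of the accessory subunit NDUFC1, with intensities of 4905 and 4867 on the CD133+ arrays and 1591 and 1602 on the CD133- arrays of KATO-III. The fractions lay far apart, with a log2 change of 1.61 ± 0.05, adjusted p = 1.75e-07 (± SE, as for all changes below, with 2 arrays per population). In SNU-216 the order was the opposite, with 1894 and 1802 on the CD133+ arrays and 2328 and 2398 on the CD133- arrays of SNU-216 (-0.35 ± 0.05, adjusted p = 0.000757). In SNU-601 NDUFC1 was again higher in CD133+ cells, with 2676 and 2508 on the CD133+ arrays and 2153 and 2037 on the CD133- arrays of SNU-601 (0.31 ± 0.05, adjusted p = 0.0037). The arrays of the fractions did not overlap in any line, and the changes differed between the lines (adjusted p = 1.82e-06).

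Among the 7 genes of the catalytic core, 2 were higher and 1 lower in KATO-III, 1 was lower in SNU-216 and 1 higher in SNU-601. NDUFS7, which carries the iron-sulfur cluster next to the ubiquinone site, gave 2592 and 2281 on the CD133+ arrays and 3200.5 and 3243 on the CD133- arrays of KATO-III and 3013 and 2872 on the CD133+ arrays and 5487 and 5322 on the CD133- arrays of SNU-216. It was lower in CD133+ cells of both lines, by a log2 change of -0.41 ± 0.07, adjusted p = 0.00129 in KATO-III and -0.88 ± 0.07, adjusted p = 3.59e-05 in SNU-216. In SNU-601 its fractions lay at 5910.3 and 5384 against 5101 and 5229 and the change did not pass (0.13 ± 0.07, adjusted p = 0.262). NDUFV2 and NDUFS1, subunits of the NADH-oxidizing arm, were the core genes higher in KATO-III, with 12917 and 12453 against 8503 and 8739 for NDUFV2 (0.56 ± 0.06, adjusted p = 7e-05). NDUFS1 was dim, at 183 and 170.1 against 97.4 and 111 (0.76 ± 0.17, adjusted p = 0.00763), and its adjusted p was 0.052 without KATO-III CD133- replicate 1. NDUFV1, which binds NADH and the flavin, was higher in SNU-601, with 5878 and 6858 against 4853 and 5155 (0.34 ± 0.10, adjusted p = 0.0428), a call that was kept in 3 of 12 fits without 1 array, those that left out SNU-216 CD133- replicate 1 or 2 or SNU-601 CD133+ replicate 1. NDUFS3 and NDUFS8 passed in no line, with changes between -0.14 and 0.05.

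NDUFB7, an accessory subunit on the intermembrane space side, was the only member called in 1 direction in all 3 lines. It gave 3744 and 3705 on the CD133+ arrays and 4503 and 4721 on the CD133- arrays of KATO-III, 4947 and 5288 on the CD133+ arrays and 6802 and 6526 on the CD133- arrays of SNU-216, and 5227 and 4967 on the CD133+ arrays and 6344 and 6277 on the CD133- arrays of SNU-601. The fractions did not overlap in any line, with the CD133- arrays on the higher side. The log2 change was -0.31 ± 0.05, adjusted p = 0.000983 in KATO-III, -0.38 ± 0.05, adjusted p = 0.000496 in SNU-216 and -0.31 ± 0.05, adjusted p = 0.00348 in SNU-601, and no difference between the lines was detected (adjusted p = 0.60). Of all genes 0.427% were called lower and 0.63% higher in all 3 lines, and of the 81 genes 1 was called lower and 0 higher in all 3. Each of the 3 calls was kept whichever of the 12 arrays was dropped. With the arrays of a line alone, the change had an adjusted p of 0.053 in SNU-216 and 0.0782 in SNU-601.

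Of the other accessory subunits, NDUFA11 was lower in CD133+ cells of KATO-III (-0.22 ± 0.05, adjusted p = 0.0104) and SNU-216 (-0.44 ± 0.05, adjusted p = 0.000374), in SNU-216 with 8674 and 8244 against 11242 and 11759, and the KATO-III call was lost without CD133+ replicate 1 or CD133- replicate 2. NDUFA9, which lies near the ubiquinone site, was higher in CD133+ cells of SNU-216, with 4540.2 and 4371 against 3477 and 3462 (0.36 ± 0.05, adjusted p = 0.000717). It was lower in those of SNU-601, with 6350 and 5903 against 7207 and 7719 (-0.28 ± 0.05, adjusted p = 0.0053). NDUFAB1, the mitochondrial acyl carrier protein, was higher in KATO-III, with 11625 and 11427 against 9683 and 8253 (0.37 ± 0.08, adjusted p = 0.00774). In SNU-601 it gave 6741 and 6854 against 5925 and 5061 (0.31 ± 0.08, adjusted p = 0.0362), a call kept in 3 of 12 fits without 1 array, those that left out KATO-III CD133- replicate 1 or 2 or SNU-601 CD133- replicate 1. NDUFC2 was near the floor in KATO-III and SNU-216, where 1 of 8 arrays exceeded it. In SNU-601 it gave 109 and 94.6 against 42.7 and 67.4 (0.92 ± 0.22, adjusted p = 0.0232), and the call was lost without SNU-601 CD133+ replicate 1 or 2 or CD133- replicate 1, with a floor of 16 and with an offset in place of the floor. Of the 3 assembly factors, NDUFAF2 was higher in KATO-III (0.61 ± 0.06, adjusted p = 5.26e-05) and NDUFAF1 in SNU-216 (0.42 ± 0.11, adjusted p = 0.0224), while NDUFAF3 passed in no line. The call of NDUFAF1 was lost without KATO-III CD133+ replicate 1 or 2, SNU-216 CD133+ replicate 2 or SNU-216 CD133- replicate 1.

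NDUFA4, first assigned to complex I and now counted with complex IV, and NDUFA4L2, which is known as a gene induced by hypoxia, were compared with themselves only, since levels of different probes cannot be set against each other. NDUFA4L2 gave 71.4 and 93.5 on the CD133+ arrays and 411 and 394 on the CD133- arrays of KATO-III, so that the CD133- cells of this line stood apart from all other populations, and the log2 change was -2.30 ± 0.29, adjusted p = 0.00029. On the other 8 arrays it lay between 40.5 and 81.6, and the fractions overlapped in SNU-216 and SNU-601. The fall in KATO-III was the largest of any member in either direction. NDUFA4 gave 6838 and 6387 on the CD133+ arrays and 7772 and 8986 on the CD133- arrays of SNU-216 (-0.34 ± 0.07, adjusted p = 0.00826), lost without SNU-216 CD133+ replicate 2 or CD133- replicate 2, and did not pass in KATO-III (-0.03 ± 0.07, adjusted p = 0.811) or SNU-601 (-0.03 ± 0.07, adjusted p = 0.949).

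Complex II has 4 subunits, all nuclear-encoded, and its members changed in different directions. SDHD, a membrane anchor, gave 6009 and 5072 on the CD133+ arrays and 2030.2 and 1923 on the CD133- arrays of KATO-III, with no overlap and a log2 change of 1.48 ± 0.17, adjusted p = 0.000168. In SNU-601 its arrays were 1999 and 2059 against 1580 and 1215 (0.55 ± 0.17, adjusted p = 0.062), and in SNU-216 the fractions overlapped (0.08 ± 0.17, adjusted p = 0.847). SDHC, the other anchor, gave 324 and 337 on the CD133+ arrays and 451 and 493 on the CD133- arrays of KATO-III, 1901 and 1838 on the CD133+ arrays and 1382 and 1365 on the CD133- arrays of SNU-216, and 2632 and 2627 on the CD133+ arrays and 3275 and 3569.9 on the CD133- arrays of SNU-601. It was lower in CD133+ cells of KATO-III (-0.51 ± 0.06, adjusted p = 0.000173) and SNU-601 (-0.38 ± 0.06, adjusted p = 0.00355) and higher in those of SNU-216 (0.44 ± 0.06, adjusted p = 0.000676), with no overlap in any line and a difference between lines (adjusted p = 7.78e-05). In KATO-III the 2 anchors therefore moved apart, SDHD up and SDHC down. SDHB, the iron-sulfur subunit, was lower in SNU-601, with 11153 and 10687 against 12200.4 and 12965 (-0.20 ± 0.04, adjusted p = 0.0147), a call lost without SNU-601 CD133+ replicate 2 or CD133- replicate 2. SDHA, the catalytic flavoprotein, gave 0.01 ± 0.06, adjusted p = 1.00 in KATO-III, 0.00 ± 0.06, adjusted p = 1.00 in SNU-216 and 0.06 ± 0.06, adjusted p = 0.607 in SNU-601.

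**Figure D2:**
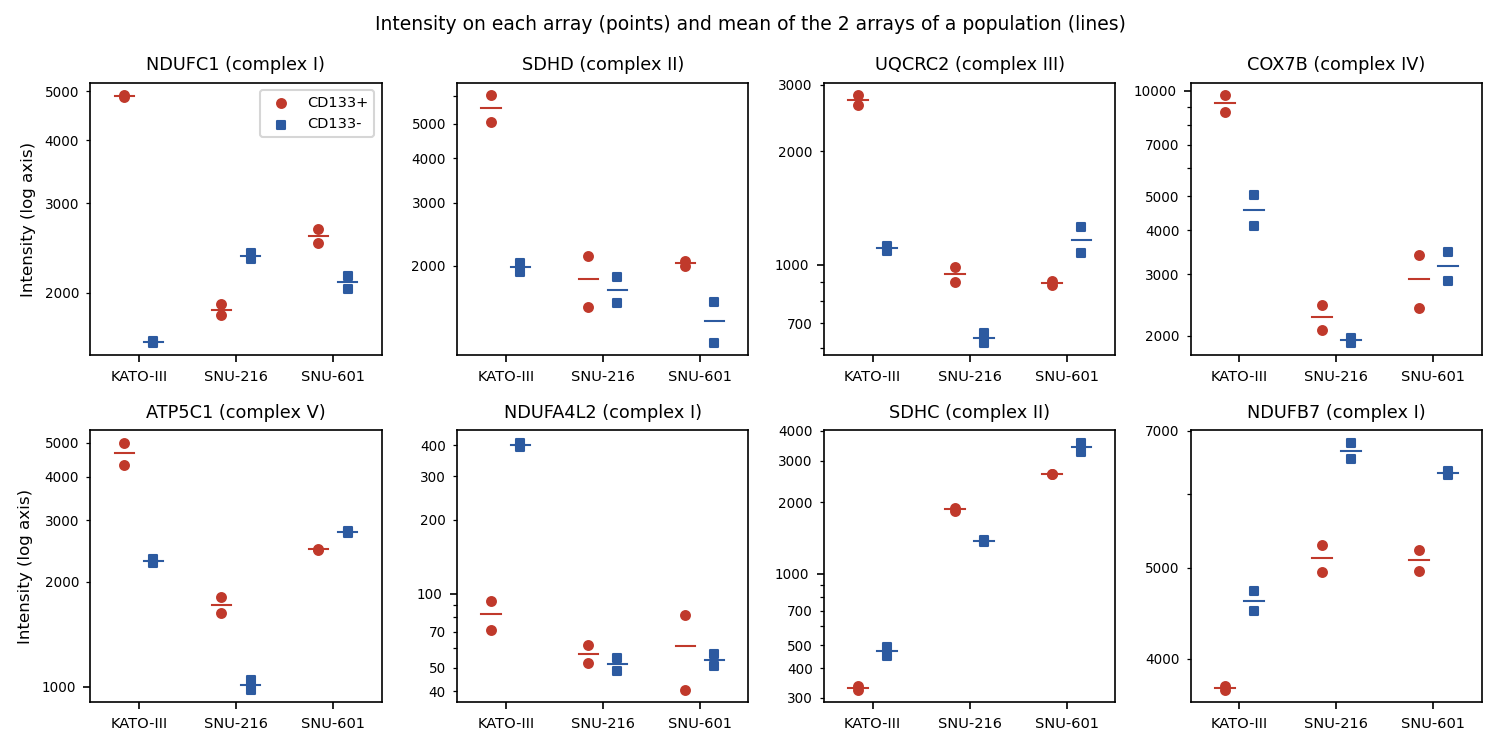
Intensity on each array (vertical log axis) of 8 genes in CD133+ (red circles) and CD133- (blue squares) cells of the 3 lines, with a line at the mean of the 2 arrays of a population. NDUFC1, SDHD, UQCRC2, COX7B and ATP5C1 are highest in the CD133+ cells of KATO-III, NDUFA4L2 in its CD133- cells, SDHC lies lowest in KATO-III, and NDUFB7 is lower in CD133+ cells of each line.

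Complex III had 3 higher (37.5%) and 0 lower of 8 genes tested in KATO-III, 3 higher and 1 lower in SNU-216, and 0 higher and 2 lower in SNU-601. The shares of all genes were 18.7% and 20.6% in KATO-III, 14.6% and 14% in SNU-216, and 8.59% and 7.78% in SNU-601. The higher genes include UQCRHL, carried along by name only, and of the 7 subunits 2 were higher in KATO-III (28.6%). UQCRC2, a core protein of the matrix side, gave 2653 and 2814 on the CD133+ arrays and 1091 and 1120.4 on the CD133- arrays of KATO-III and 989.6 and 902 on the CD133+ arrays and 661 and 621 on the CD133- arrays of SNU-216. It was higher in CD133+ cells of both, by 1.31 ± 0.08, adjusted p = 5.33e-06 in KATO-III and 0.56 ± 0.08, adjusted p = 0.000952 in SNU-216. In SNU-601 it was lower, with 882 and 903 against 1256 and 1073 (-0.38 ± 0.08, adjusted p = 0.0135), a call lost without SNU-601 CD133+ replicate 1 or 2 or CD133- replicate 1, and the changes differed between lines (adjusted p = 3.04e-05). UQCRB, which binds ubiquinone, was higher in SNU-216, with 1557 and 1606 against 963 and 1083 (0.63 ± 0.07, adjusted p = 0.000252), and in KATO-III (0.22 ± 0.07, adjusted p = 0.0367), where the call was kept in 5 of 12 fits without 1 array and lost without KATO-III CD133+ replicate 1 or 2, KATO-III CD133- replicate 2, either SNU-216 CD133+ array or either SNU-601 CD133- array. UQCR, a small subunit, was dim and lower in SNU-216 (-0.37 ± 0.11, adjusted p = 0.0304) and SNU-601 (-0.41 ± 0.11, adjusted p = 0.0318), with 302 and 262 against 358 and 368 and 186 and 213 against 255 and 275. The first call was lost without SNU-216 CD133+ replicate 2 or CD133- replicate 1 or 2, and the second without SNU-601 CD133+ replicate 1 or CD133- replicate 1 or 2. UQCRHL was higher in KATO-III (0.46 ± 0.06, adjusted p = 0.000451) and SNU-216 (0.27 ± 0.06, adjusted p = 0.0112) where UQCRH, of which it is a close copy, was not (0.04 ± 0.07, adjusted p = 0.726 and 0.11 ± 0.07, adjusted p = 0.288), and their signals may not be separate. The SNU-216 call of UQCRHL was lost without CD133+ replicate 1 or CD133- replicate 2. UQCRC1, UQCRFS1 and UQCRQ passed in no line.

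Complex IV had 12 of its 19 genes tested, of which 2 were higher (16.7%) and 2 lower (16.7%) in KATO-III. In SNU-216 2 were higher and 0 lower, and in SNU-601 1 was higher and 0 lower. The shares of all genes were 18.7% and 20.6% in KATO-III, 14.6% and 14% in SNU-216, and 8.59% and 7.78% in SNU-601. The higher genes include COX4NB, no subunit, in KATO-III and COX7A2L in SNU-216. Of the 10 common subunits, 1 was higher and 2 lower in KATO-III. COX7B, a small subunit of the common form, gave 9688 and 8701 on the CD133+ arrays and 5055 and 4106 on the CD133- arrays of KATO-III (1.01 ± 0.17, adjusted p = 0.00162). Its fractions did not differ past the threshold in SNU-216 (0.22 ± 0.17, adjusted p = 0.437) or SNU-601 (-0.14 ± 0.17, adjusted p = 0.709), where the arrays of a fraction spread widely (2398 and 3409.7 for CD133+ cells). COX7A2L was higher in SNU-216, with 7209.6 and 7568 against 4616 and 5337 (0.57 ± 0.07, adjusted p = 0.000581). COX6B1, a subunit of the intermembrane space side, was higher in the same line (0.38 ± 0.06, adjusted p = 0.00234). In KATO-III COX6B1 was lower by a small amount (-0.18 ± 0.06, adjusted p = 0.0487), a call kept in 3 of 12 fits without 1 array, those that left out KATO-III CD133+ replicate 2 or SNU-601 CD133- replicate 1 or 2. COX4I1 was lower in KATO-III, with 13167 and 13380.5 against 14739 and 15423 (-0.18 ± 0.04, adjusted p = 0.00555). COX8A was higher in SNU-601, with 17139 and 16646 against 14675 and 15102 (0.18 ± 0.05, adjusted p = 0.0301), and lost its call without any 1 of the 4 SNU-601 arrays. COX6A1 and COX7A2 passed in no line, with changes between -0.06 and 0.04. The tissue isoforms COX4I2, COX6A2, COX6B2, COX7A1, COX7B2 and COX8C, which are known from lung, muscle or testis, lay above the floor on no array, with 15.3 as their highest value, while their widely expressed partners were above it on all 12.

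Complex V had 4 higher (22.2%) and 4 lower (22.2%) of 18 genes in KATO-III. In SNU-216 5 were higher and 2 lower, and in SNU-601 0 were higher and 1 lower. The shares of all genes were 18.7% and 20.6% in KATO-III, 14.6% and 14% in SNU-216, and 8.59% and 7.78% in SNU-601. Genes carried along by name only are among the calls of KATO-III, with ATP5S and ATP5SL higher and ATP5EP2 lower. ATP5C1 (now ATP5F1C), the γ subunit that turns inside the F1 head, gave 5004 and 4328 on the CD133+ arrays and 2321 and 2266 on the CD133- arrays of KATO-III and 1807 and 1626 on the CD133+ arrays and 1049 and 979 on the CD133- arrays of SNU-216. It was higher in CD133+ cells of both, by 1.02 ± 0.07, adjusted p = 1.34e-05 in KATO-III and 0.76 ± 0.07, adjusted p = 0.000132 in SNU-216, and gave -0.17 ± 0.07, adjusted p = 0.188 in SNU-601. ATP5D, the δ subunit beside it in the central stalk, was lower in CD133+ cells of SNU-216, with 4379 and 4676 against 7343 and 7406 (-0.70 ± 0.09, adjusted p = 0.00052), where ATP5C1 rose. The catalytic head subunits ATP5A1 and ATP5B passed in no line, with changes between -0.13 and -0.01.

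The c ring of complex V is built from 1 mature protein that 3 genes encode, and these genes differed in behavior. ATP5G2 gave 3068 and 3488 on the CD133+ arrays and 5237 and 4962 on the CD133- arrays of KATO-III and 4433 and 4515 on the CD133+ arrays and 3086 and 3342 on the CD133- arrays of SNU-216. It was lower in CD133+ cells of KATO-III (-0.64 ± 0.08, adjusted p = 0.000213) and higher in those of SNU-216 (0.48 ± 0.08, adjusted p = 0.00181), and the lines differed (adjusted p = 0.000198). ATP5G3 gave 632 and 683 on the CD133+ arrays and 413 and 420.2 on the CD133- arrays of KATO-III and 379 and 334 on the CD133+ arrays and 282 and 236 on the CD133- arrays of SNU-216, and was higher in both (0.66 ± 0.10, adjusted p = 0.000663 and 0.46 ± 0.10, adjusted p = 0.00663), the second call being lost without SNU-216 CD133+ replicate 1. ATP5G1 was lower in SNU-601, with 2994 and 3020.1 against 3543 and 3792 (-0.29 ± 0.05, adjusted p = 0.00413), and in KATO-III (-0.16 ± 0.05, adjusted p = 0.0233), where the call was lost without CD133+ replicate 1 or 2 or CD133- replicate 2. In KATO-III 1 of the 3 genes was thus higher and 2 were lower in CD133+ cells.

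A difference between lines in the CD133+ to CD133- change was called for 39 of the 81 genes (48.1%), against 44.4% of all genes, from the interaction term of limma (moderated F). By complex these were 18 of 39 genes of complex I, 3 of 4 of complex II, 3 of 8 of complex III, 5 of 12 of complex IV and 10 of 18 of complex V. Calls in opposite directions in a pair of lines were found for 10 genes (12.3%), against 10.9% of all genes. These were NDUFA1, NDUFA7, NDUFA9, NDUFA10, NDUFC1, SDHC, UQCRC2, COX6B1, ATP5G2 and ATP5J. Of the 21 genes called in 2 or 3 lines, 11 were called in a single direction. Lines share no arrays in these comparisons, but all share the estimate of the spread.

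Over all lines, with line as a block and 8 residual degrees of freedom, 1 gene was higher and 1 lower in CD133+ cells, where 2.62% and 2.11% of all genes were. ATP5G3 was higher (0.41 ± 0.10, adjusted p = 0.0429) and NDUFB7 lower (-0.33 ± 0.04, adjusted p = 0.00573). With the arrays of a population averaged, or with the population as a random block, neither passed by limma (adjusted p of 0.796 for both when averaged, and 0.298 for ATP5G3 and 0.149 for NDUFB7 with the random block). At an unadjusted p under 0.05 the averaged fit gave 1 higher and 1 lower gene and the random block 5 and 3. The call of ATP5G3 was also lost without any 1 of the 8 arrays of KATO-III and SNU-216 and without SNU-601 CD133+ replicate 2, at adjusted p of 0.0507 to 0.109, while that of NDUFB7 was kept in all 12 such fits. SDHD, UQCR and ATP5C1 came next, with 0.70 ± 0.20, adjusted p = 0.0629, -0.33 ± 0.09, adjusted p = 0.0601 and 0.54 ± 0.16, adjusted p = 0.0749. The study selected genes by a signal-to-noise ratio whose formula is not given in the sources used here. With the ratio taken as the difference of the means of 6 CD133+ and 6 CD133- arrays over the sum of their SDs, which need not select the study's genes, 0 members lay above 1 (0.558% of all genes) and 1 gene below -1 (0.402%). That gene was COX5A, at -1.21, named because it alone passed. Its intensities were between 12792 and 14375 on CD133+ arrays and between 14430.1 and 16036 on CD133- arrays, and its log2 change over all lines did not pass (-0.15 ± 0.04, adjusted p = 0.080).

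The levels of these genes also differed between the lines. Averaged over the fractions, 17 genes were higher and 31 lower in SNU-216 than in KATO-III, where 31.7% and 30.3% of all genes were, which is 21.0% and 38.3% of the 81. In SNU-601 against KATO-III, 24 were higher and 26 lower (29.6% and 32.1%, against 29.9% and 28.7% of all genes). In SNU-216 against SNU-601, 16 were higher and 33 lower (19.8% and 40.7%, against 29.4% and 27.1% of all genes). SNU-216 had the lowest mean of the 3 lines for 36 genes and the highest for 13. For 32 genes the means of the lines lay within 0.3 on the log2 scale, and for 14 they spread over 1 or more, with a median spread of 0.39. The counts of lowest, highest and spread were not taken over all genes, so they cannot be called particular to these genes.

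SDHC had the widest spread, with line means that rose from 401 in KATO-III to 1622 in SNU-216 and 3026 in SNU-601. All 3 pairs of lines differed for SDHC. The log2 difference from KATO-III was 2.02 ± 0.04, adjusted p = 2.13e-10 for SNU-216 and 2.93 ± 0.04, adjusted p = 4.2e-11 for SNU-601. For SNU-216 minus SNU-601 it was -0.90 ± 0.04, adjusted p = 6.09e-08. The other complex II genes spread less, by 0.69 for SDHA, 0.38 for SDHB and 0.98 for SDHD. COX7B was highest in KATO-III and lowest in SNU-216 (-1.62 ± 0.12, adjusted p = 2.05e-06), as were UQCRC2 (-1.16 ± 0.06, adjusted p = 8.81e-08) and ATP5C1 (-1.31 ± 0.05, adjusted p = 2.23e-08). These 3 genes also had their largest rise between fractions in KATO-III, and that rise enters the line mean, which averages both fractions. Among the CD133- populations alone, SNU-601 had the highest mean for UQCRC2 (1165, against 1106 for KATO-III). The same held for ATP5C1 (2779 against 2294). COX7B stayed highest in KATO-III (4580, against 3164 for SNU-601). ATP5G3 was highest in SNU-601 and lowest in SNU-216 (-1.40 ± 0.07, adjusted p = 8.44e-08). NDUFS1 exceeded the floor on 1 of the 4 SNU-216 arrays, with values of 24.7 and 28.1 in CD133+ and 40.9 and 23.4 in CD133- cells, against 115 to 204 on the SNU-601 arrays, so its fitted difference of -2.22 ± 0.12 (adjusted p = 2.19e-07) depends on the floor. KATO-III and SNU-601 did not differ past the threshold for NDUFS1 (0.25 ± 0.12, adjusted p = 0.117).

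**Figure D3:**
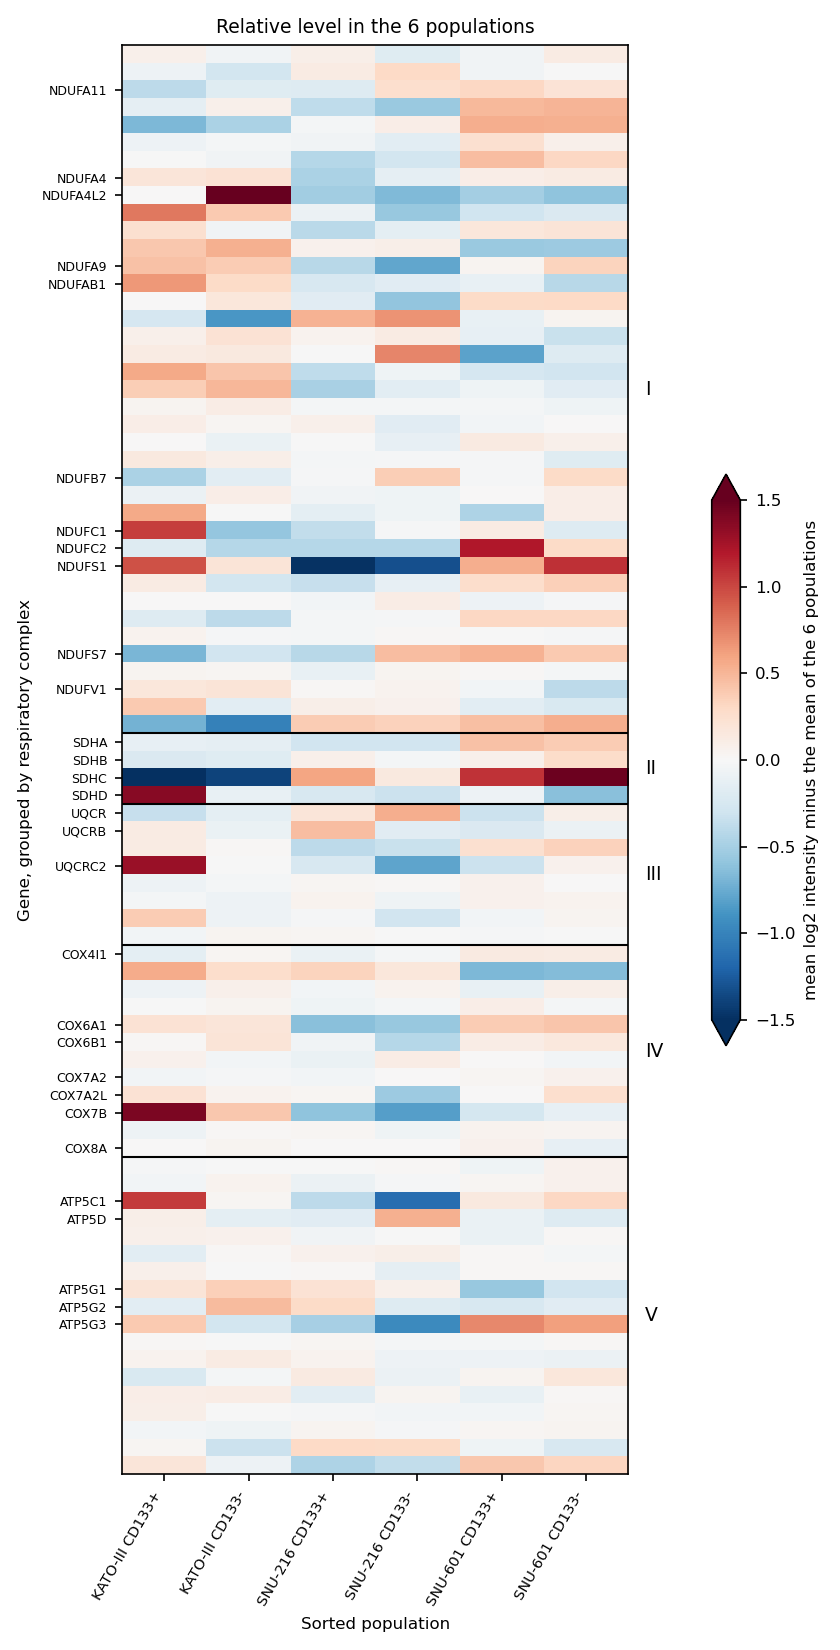
Mean log2 intensity of the 81 genes in the 6 populations (columns), as the difference from each gene's mean over the populations (color, cut at 1.5 in either direction), with genes in rows grouped by complex and part of them labeled. Rows such as SDHC, NDUFS1 and ATP5G3 follow the line, while NDUFC1, SDHD and NDUFA4L2 stand out in 1 fraction of KATO-III. COX7B does both, being higher in each fraction of KATO-III than in the other lines and highest in its CD133+ cells.

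The size of a change went with the level of the signal. Of 28 genes with a mean intensity of 10000 or more, 10 were called in at least 1 line (35.7%), against 41.9% of all genes in that class, and the median of the largest absolute log2 change was 0.14. Of 45 genes between 1000 and 10000, 33 were called (73.3%), against 84.7% of all genes, with a median of 0.34. Of 8 genes under 1000, 5 were called (62.5%, against 47% of all genes), with a median of 0.70. The medians of all genes in these classes were 0.16, 0.45 and 0.53. ATP5A1, ATP5B, COX7C, NDUFS8 and UQCRFS1, all in the brightest class, passed in no line. The part of signal level in the size of the changes was not tested.

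**Figure D4:**
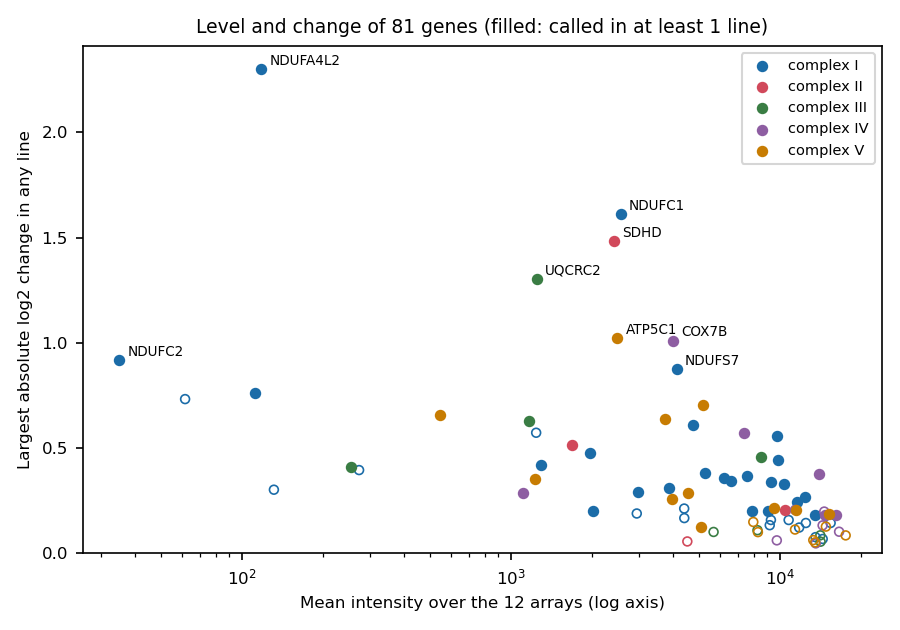
Mean intensity over the 12 arrays (horizontal log axis) against the largest absolute log2 change between fractions in any line (vertical axis) for the 81 genes. Filled points were called in at least 1 line and colors mark the complex. The genes with a change above 1 have a mean intensity below 10000, and the 28 brightest genes have a median of 0.14.

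Beside the tissue isoforms, NDUFB4, NDUFS6 and COX6BP1 exceeded the floor on no array and NDUFA5 on 1, so nothing is known here of their change. Since each is a single row, it cannot be told whether its probes measured the gene.

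The other genes of the pathway, from lists that the symbol rule does not hold, moved in both directions too. The shares of all genes to read these counts against are 18.7% higher and 20.6% lower in KATO-III, 14.6% and 14% in SNU-216, and 8.59% and 7.78% in SNU-601. Of 5 electron carriers, 0 were higher and 2 lower in KATO-III, 0 and 1 in SNU-216, and 1 and 2 in SNU-601. CYCS, cytochrome c, was lower in CD133+ cells of all 3 lines, with population means of 279.8 against 433 in KATO-III, 227 against 352 in SNU-216 and 502 against 671 in SNU-601. Its log2 changes were -0.63 ± 0.09, adjusted p = 0.000412, -0.63 ± 0.09, adjusted p = 0.000697 and -0.42 ± 0.09, adjusted p = 0.0115, the last lost without SNU-601 CD133+ replicate 2 or CD133- replicate 1. Of 23 assembly factors tested, 6 were higher (26.1%) and 8 lower (34.8%) in KATO-III, 3 and 5 in SNU-216, and 2 and 2 in SNU-601. COX19, a copper-handling factor of complex IV, was lower in KATO-III (-1.33 ± 0.07, adjusted p = 2.23e-06) and SNU-216 (-1.08 ± 0.07, adjusted p = 1.45e-05) and gave -0.03 ± 0.07, adjusted p = 0.903 in SNU-601. ATPIF1, the inhibitor of ATP synthase, was lower in SNU-216 alone of the 3 lines tested (-0.51 ± 0.06, adjusted p = 0.000249), and its changes differed between lines (adjusted p = 0.00187).

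Among 16 regulators tested, KATO-III had 7 that were higher in CD133+ cells (43.8%) and 2 that were lower (12.5%), SNU-216 had 2 of each, and SNU-601 had 0 and 4. Of all genes, 18.7% were higher and 20.6% lower in KATO-III, 14.6% and 14% in SNU-216, and 8.59% and 7.78% in SNU-601. TFAM, which mitochondrial transcription depends on, was higher in KATO-III (0.66 ± 0.04, adjusted p = 6.47e-06) and SNU-216 (0.59 ± 0.04, adjusted p = 2.43e-05) and gave 0.00 ± 0.04, adjusted p = 1.00 in SNU-601. PPARGC1A, which encodes PGC-1α, was higher in KATO-III (0.60 ± 0.11, adjusted p = 0.0025) and lower in SNU-601 (-0.60 ± 0.11, adjusted p = 0.00762), and in SNU-216 its mean was at or below 0 in both fractions. GABPA was higher in SNU-216 (0.54 ± 0.09, adjusted p = 0.00166) and lower in SNU-601 (-0.49 ± 0.09, adjusted p = 0.00577), and of its partners in KATO-III GABPB1 was higher (1.03 ± 0.17, adjusted p = 0.00155) and GABPB2 lower (-0.61 ± 0.10, adjusted p = 0.000917). NRF1, which exceeded the floor on 4 of the 12 arrays, passed in no line (0.00 ± 0.17, adjusted p = 1.00, 0.43 ± 0.17, adjusted p = 0.0874 and 0.00 ± 0.17, adjusted p = 1.00). The genes CYCS, COX19, TFAM, PPARGC1A, GABPA, GABPB1, GABPB2 and NRF1, and among the members NDUFV2, NDUFAF1, NDUFAF2, UQCRHL and the genes listed without a call, were named after their values were seen. The same holds for the calls of NDUFA1, NDUFA7, NDUFA10, ATP5J, COX4NB, ATP5S, ATP5SL and ATP5EP2, for which no fits without 1 array are given.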

How the data were processed

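Per the labels and the study's methods, RNA of sorted cells was amplified, labeled and hybridized on Illumina HT-12 v3 arrays. The authors deposited 1 table of linear intensity values per gene and array, quantile-normalized and, as values from -56.4 show, background-subtracted. The submitters' processing notes name BeadStudio. The background method and the way probes of a gene were combined are not given in the sources used here. Of 34688 genes, 93 had no value and 32.13% of the intensity values were at or below 0. The intensities were therefore raised to a minimum of 32.7, the magnitude of the lowest percentile over the table, and taken to log2. Genes above the floor on at least 2 of 12 arrays (20147) went into limma 3.58.1 (R 4.3.3; mean per population, 6 residual degrees of freedom, empirical Bayes with a trend), with Benjamini-Hochberg adjustment over all of them and a threshold of 0.05. The comparisons were the fractions within each line, their interaction with line, the lines, and the fractions over all lines with line as a block (8 residual degrees of freedom). The signal-to-noise ratio, for which the study's formula is not given in the sources used here, was taken as the difference of the 6 array means of each fraction over the sum of their SDs. Tables and figures were made in Python 3.11.15 with numpy 2.4.6, pandas 2.3.3 and matplotlib 3.10.9.

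This ratio was kept as a description, and limma served as the test. The fits were tested on simulated data. The members follow from their symbols, and the members, gene lists and tests were chosen with earlier results of these data known. The genes named by rule were, per line, the 5 members called with the largest change in each direction, members called alike in all lines or over all lines, the 5 of opposite calls with the smallest interaction p, the member of each complex with the widest spread between lines, isoform pairs, and all of complex II. Others were named after their values were seen, as stated above. Replicate numbers were taken from the labels. The numbers were not used as pairs, since the study names no pairing of them. The deviations of same-numbered arrays correlated at -0.0116 to 0.0276 between populations. The number of arrays limits the precision. Alternatives were other floors, an offset, other scaling, other filters on dim genes, no trend, a replicate block, averaged arrays or a random block per population, the arrays of a line alone, and each array or line left out. Of the 91 genes, 68 matched RefSeq by symbol and 22 by an older symbol, and NDUFA4 was unmatched. A gene of the list is not reported here by name.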

Additional observations from a re-analysis of the deposited data

Results flagged for a closer look

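A difference between lines in the CD133+ to CD133- change was called for 39 of the 81 genes by limma, and the members among them for which a call in a line is given above are listed by complex with the adjusted p of the test. In complex I they were NDUFC1 (1.82e-06), NDUFAF2 (0.000142), NDUFS7 (0.000163), NDUFA9 (0.000327), NDUFV2 (0.000983), NDUFA11 (0.00111), NDUFA1 (0.00184), NDUFA7 (0.002), NDUFA10 (0.00501), NDUFS1 (0.00585), NDUFAB1 (0.0246) and NDUFAF1 (0.0373). NDUFC1, NDUFA9, NDUFA1, NDUFA7 and NDUFA10 had calls in opposite directions, NDUFS7 and NDUFA11 were lower in KATO-III and SNU-216, and NDUFS1 had its single call in KATO-III. NDUFA4L2, an isoform of a subunit, gave 0.00185, with its highest level in CD133- cells of KATO-III.

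In complex II, SDHC (7.78e-05), SDHD (0.00393) and SDHB (0.00959) differed between the lines. In complex III these were UQCRC2 (3.04e-05) and UQCRB (0.000918), and the copy UQCRHL gave 0.00308. UQCRC2 and UQCRB were called higher in CD133+ cells of KATO-III and SNU-216, and UQCRC2 was called lower in those of SNU-601. In complex IV, COX6B1 (0.00236), COX7B (0.0114), COX4I1 (0.0452) and COX8A (0.0469) differed, and the supercomplex gene COX7A2L gave 0.000883. In complex V, ATP5C1 (9.38e-05), ATP5G2 (0.000198), ATP5D (0.000788), ATP5J (0.00124), ATP5G1 (0.00219) and ATP5G3 (0.0257) differed. Among the genes carried along by name only, ATP5SL (0.0113), ATP5S (0.0179) and ATP5EP2 (0.023) differed too.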

How the results depend on the processing

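Of the other settings, none turned the direction of a named change, and 486 of 535 values of single genes kept their side of the threshold while 49 lost it. Over all lines the count of lower genes was 2 with a floor of 100, without a filter or without a trend, 3 with only genes above the floor on all arrays, without SNU-216 or without SNU-601, and 0 with averaged arrays or the random block. The count of higher genes over all lines was 2 with an offset of 100, 3 with genes above the floor on all arrays or without SNU-216, 9 without SNU-601, and 0 by limma without a filter, with the replicate block, with averaged arrays, with the random block or without KATO-III, where 10, 8, 1, 5 and 2 genes were higher at an unadjusted p under 0.05. Centering the arrays on their medians gave 9 higher genes in SNU-601 and median changes of 0.0639 in KATO-III and 0.0073 in SNU-601. With no filter, 1 gene was higher in SNU-601 and the medians were 0 and -0.0026, and without a trend 2 were higher in SNU-601. With the arrays of a line alone, 4 genes were lower in KATO-III, 9 higher and 4 lower in SNU-216, and 0 higher and 0 lower in SNU-601, at 4 and 11 by unadjusted p. The cause of these shifts was not tested. Without 1 array, between 14 and 20 genes were higher and 8 and 13 lower in KATO-III, 12 to 17 higher and 6 to 13 lower in SNU-216, 2 to 4 higher and 5 to 9 lower in SNU-601, 0 to 1 higher and 1 lower over all lines, and 31 to 35 differed between lines. The medians then ran from -0.0149 to 0.0455 in KATO-III, from -0.0108 to 0.0132 in SNU-216 and from -0.0333 to -0.0051 in SNU-601, and 0 to 1 genes passed a signal-to-noise ratio of 1, the 1 being without SNU-601 CD133- replicate 2. The replicate block, in which the numbers share only a label, gave 21 higher and 12 lower genes in KATO-III, 17 and 13 in SNU-216, 5 and 9 in SNU-601, 0 and 1 over all lines, and 38 in the interaction.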
